A study of Gallus gallus with 6 samples.

Results

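Transcripts of 6 host defence genes (EXFABP, LEAP2, LYG2, LYZ, NCF4 and CSF3R) were followed through the jejunal mucosa of heated breeder hens. They were found by symbol, all 6 of them, among 15656 named genes of the deposited table, and all 6 were among the 11587 genes with a mean FPKM (fragments scaled for gene length and library size) of at least 1. The genes were chosen by function with their FPKM differences between the groups already known, so those differences are described here without a test. Leuang Hang Kao hens were labelled heat adapted (HA, libraries HA1 to HA3) and SUT hens heat sensitive (HS, libraries HS1 to HS3). Both groups were 28 weeks old and had spent 6 h at 36 °C, and each library holds jejunal RNA of 4 hens, or 12 hens per group. The labels give each group its own genotype, whereas the series' design text describes a random assignment of hens to the groups, and the sources used here do not settle which holds. No unheated hens were analysed here. If the genotype labels hold, breed and heat adaptation cannot be told apart, and in either case no response to heat within a group is measured. Nothing states that the pools came from separate batches of hens, so p-values cover only the spread between these pools.

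The mucosa meets gut bacteria with proteins that kill them, starve them or call in phagocytes. Lysozymes cut the peptidoglycan of bacterial walls, and birds carry both the chicken type (LYZ) and the goose type (LYG2). EXFABP is a chicken lipocalin that binds bacterial siderophores, the iron carriers of enteric bacteria, and also binds lysophosphatidic acid. LEAP2 is a small cationic antimicrobial peptide, which in mammals also blocks the ghrelin receptor. NCF4 is a cytosolic subunit of the phagocyte NADPH oxidase, which makes superoxide, and CSF3R is the receptor for granulocyte colony-stimulating factor on granulocytes and their precursors. Heterophils are the avian granulocytes that take the place of neutrophils.

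Library totals were 10829957 to 13070796 read counts. Summed FPKM was 779730 to 885074 in the HA and 893271 to 898136 in the HS libraries, so it was lower in every HA library. The main fit did not rescale these sums, whereas TPM scaling makes them equal. A limma fit across the 11587 genes called 7 of them higher in HA than in HS libraries and 4 lower (adjusted p below 0.05), or 0.0604% and 0.0345% of those tested. At an unadjusted p below 0.05 the fit held 826 higher and 1260 lower genes (7.13% and 10.9%), or 1342 and 701 after rescaling to TPM. The deposited read counts stand in another row order than the gene symbols, and every value below is FPKM. In 73 genes whose read-count row could be recognised by its profile over the HS libraries, log2 ratios of read count to FPKM had an SD over genes of 0.00134 to 0.00219 in the HS columns, where a constant ratio was the search criterion, and of 0.931 to 1.11 in the HA columns. FPKM and read counts labelled HA thus do not describe these genes in the same way. Which of them belongs to the labelled hens is not stated in the labels, and every difference between the groups below rests on the FPKM columns. All 10 enterocyte markers (VIL1, EPCAM and FABP2 among them) were tested in these libraries, and APOA1 reached an FPKM of 6765 to 20609.

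Of the 6 genes, 3 were lower in every HA library than in any HS library (EXFABP, NCF4 and CSF3R), 1 was higher in every one (LEAP2) and 2 overlapped (LYG2 and LYZ). Over all genes tested, the groups lay apart in the lower direction in 12.9% and in the higher direction in 9%; because the genes were chosen on this contrast, nothing is read from their own share. In level, LEAP2 was the most abundant, with a mean FPKM over the 6 libraries of 429, above 97.7% of the genes tested. LYZ followed at 89.4, LYG2 at 41.7, EXFABP at 18.4, CSF3R at 7.74 and NCF4 at 4.21, against a median of 12.8 for the genes tested. The lowest LEAP2 value, 218, was above the highest LYZ value, 148. Each of the other neighbours in this order overlapped over the libraries, although CSF3R was above NCF4 in each of the 6 libraries.

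**Figure D1:**
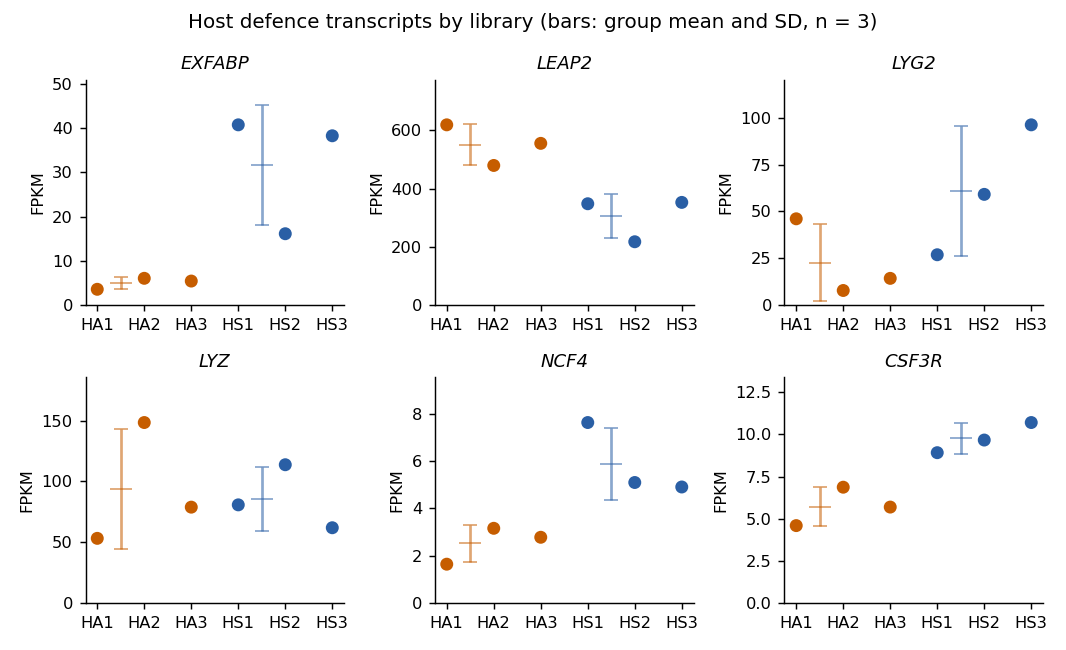
FPKM of the 6 genes (vertical axes, linear from 0) in each HA (orange) and HS (blue) library; points are libraries and bars are the group mean with its SD (n = 3). EXFABP, NCF4 and CSF3R lie lower in all 3 HA libraries, LEAP2 lies higher in all 3, and LYG2 and LYZ overlap.

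EXFABP, the siderophore-binding lipocalin, had the largest group difference of the 6 genes. Its FPKM was 3.59, 6.07 and 5.45 in HA1, HA2 and HA3, and 40.7, 16.1 and 38.2 in HS1, HS2 and HS3. The HA values were close together, and the lowest HS value, in replicate 2, was still above all of them. The group means were 5.04 ± 1.29 and 31.7 ± 13.5 (SD, n = 3 each), a ratio of 6.29 in favour of the heat-sensitive hens. The log2 difference was -2.35 (HA minus HS, on log2(FPKM + 1), SE 0.34). Every SE of a log2 difference in this text is the moderated one of the limma fit, which draws on the spread of other genes. For genes of large spread, such as LYG2, LYZ and EXFABP, it is smaller than their own spread alone would give. Only 15 of the genes tested had a larger absolute difference. Leaving out 1 library at a time moved this difference between -2.77, without HS2, and -2.13, without HS1.

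The next protein-coding genes around EXFABP in RefSeq's GRCg7b gene order include other lipocalins. LCN15 lies next to it and is not analysed here. Beyond LCN15 lies PTGDS, which makes prostaglandin D2 and belongs to the lipocalin family. PTGDS was at 10.6, 9.41 and 22.1 in the HA libraries and at 24.2, 42.3 and 23.6 in the HS ones. All its HA values were below the HS ones, but the closest pair nearly met, and the log2 difference of -1.09 (SE 0.34) did not pass (limma, adjusted p = 0.18). On the other side NPDC1, a gene of neural proliferation control, had a log2 difference of -0.00036 (SE 0.18).

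LEAP2 was the gene of the 6 that was higher in the heat-adapted hens. Its FPKM was 619, 480 and 556 in HA1 to HA3, and 348, 218 and 353 in HS1 to HS3. The groups did not overlap, and HS2 stood lowest. The means were 552 ± 69.8 and 306 ± 76.7 (SD, n = 3 each), with a ratio of HA to HS of 1.80, and the log2 difference was 0.87 (SE 0.22). It was 0.64 without HS2 and at most 0.99 when any other single library was left out. Of the flanking genes, UQCRQ, a subunit of respiratory complex III, and AFF4, of the transcription elongation complex, had log2 differences of -0.06 (SE 0.20) and -0.19 (SE 0.16).

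Enterocyte markers are given beside LEAP2 because they moved with it in part. Of 10 markers, 8 were above 0 in log2 difference, with a median of 0.33 against -0.06 for all genes tested. This median was 0.13 without HS2, 0.59 without HS1, 0.53 without HA2 and 0.51 without HS3. None passed over all genes (limma, lowest adjusted p = 0.11). At an unadjusted p below 0.05, 3 were higher and 0 lower, against 7.13% and 10.9% of all genes tested. Apart and higher lay 3 as well, and 0 apart and lower, against 9% and 12.9%. The summed FPKM of all 10 markers was 35982 to 53021 in the heat-adapted and 22029 to 44480 in the HS libraries. These ranges overlapped, and most of the sum came from APOA1, FABP1 and FABP2. HS2, lowest in LEAP2, was also lowest in this sum. The part of enterocyte RNA in the LEAP2 difference was not tested, and in bulk tissue fewer cells of a type and less RNA per cell cannot be told apart. Of the ghrelin pathway that LEAP2 acts on in mammals, GHRL, the hormone itself, was the only other gene tested; it stood at 1.31, 0.95 and 3.03 in the heat-adapted and 1.17, 1.35 and 1.46 in the HS libraries (log2 difference 0.18, SE 0.27, limma adjusted p = 0.76). The sign of this difference rested on HA3, since it was -0.13 without that library and 0.39 without HA2.

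The lysozyme genes varied more between pools of one group than most genes did. The within-group SD of LYG2 on the log2 scale was 1.08, above 99.5% of the genes tested, and that of LYZ was 0.61, above 96.9%. EXFABP, at 0.56, was above 96.0%, whereas CSF3R, at 0.19, was below the median of 0.22. LEAP2 and NCF4, at 0.31 and 0.33, lay above 75.8% and 78.9%.

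LYG2, the goose-type lysozyme, was at 46.1, 7.85 and 14.3 in HA1 to HA3 and at 26.9, 59.1 and 96.2 in HS1 to HS3. HA1 lay above the lowest HS library, and the values spread 5.87-fold within the HA group and 3.57-fold within the HS group. The log2 difference was -1.56 with an SE of 0.70. It was -2.23 without HA1, where the groups no longer overlap, and -1.02 without HA2. The read-count row recognised as LYG2 held 491 to 1177 reads in the HA columns and 318 to 1288 in the HS columns. These reads, unlike FPKM, are not scaled for library totals, which were 12729667 to 13070796 in HA and 10829957 to 12212660 in HS. Unscaled, the row did not place the HA libraries lower. LYGL, a goose-type lysozyme-like gene, is the next protein-coding gene to LYG2 in the GRCg7b order. LYGL was at 5.29, 5.69 and 5.07 in the HA libraries and at 7.14, 8.74 and 38.8 in the HS ones. HS3 was thus the highest library for both, and the LYGL difference of -1.21 (SE 0.58) did not pass (limma, adjusted p = 0.33). Reads shared between these related genes could have been split in ways that the sources used here do not describe.

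LYZ, the chicken-type lysozyme also known from egg white, showed no separation. Its FPKM was 53.1, 148 and 78.8 in HA1 to HA3 and 80.7, 114 and 61.8 in HS1 to HS3, so that both the highest and the lowest value were heat-adapted. The means were 93.4 ± 49.3 and 85.4 ± 26.2 (SD, n = 3 each). The log2 difference of 0.04 (SE 0.38) ran from -0.35 without HA2 to 0.38 without HA1, so its sign rested on single libraries. In each group the library with the most LYG2, HA1 and HS3, had the least LYZ.

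**Figure D2:**
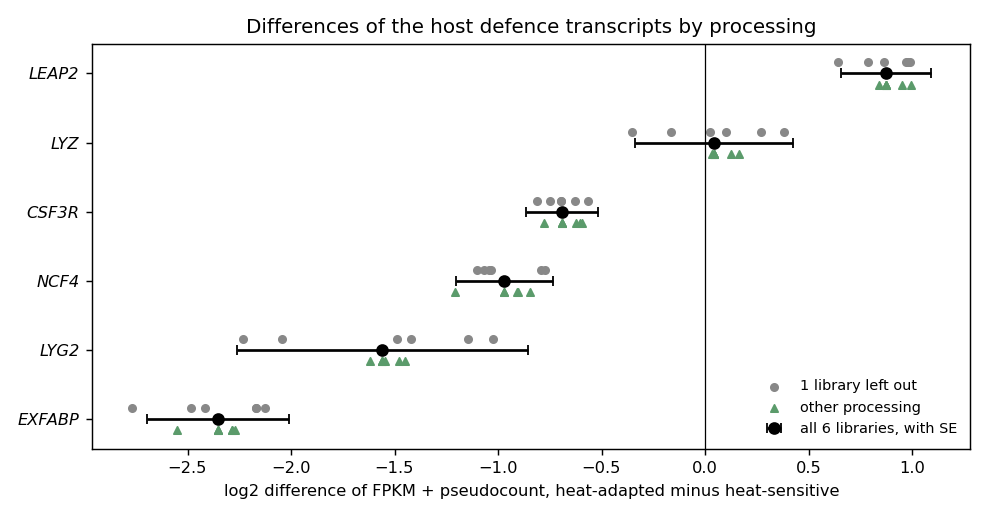
Log2 difference (horizontal axis, heat-adapted minus heat-sensitive, FPKM plus pseudocount) of the 6 genes with all libraries (black, bar = moderated SE of the limma fit), with 1 library left out (grey) and under other scalings, filters, pseudocount or block (green). EXFABP, LYG2, NCF4 and CSF3R stay below 0 and LEAP2 above 0 in each setting that holds the gene, while LYZ runs from -0.35 to 0.38. NCF4 has no value under the filter at a mean FPKM of 5.

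NCF4 and CSF3R, the phagocyte genes, were both low in level and lower in the heat-adapted hens. NCF4 was at 1.64, 3.16 and 2.78 in HA1 to HA3 and at 7.64, 5.10 and 4.91 in HS1 to HS3. The groups did not overlap, and HS1 was the highest library. The means were 2.53 ± 0.791 and 5.88 ± 1.52 (SD, n = 3 each), with a log2 difference of -0.97 (SE 0.23) that was -0.77 without HA1 and -1.10 without HA2. With a pseudocount of 0.1 in place of 1 it was -1.21, since the larger pseudocount compresses differences of low genes.

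CSF3R was at 4.59, 6.87 and 5.69 in HA1 to HA3 and at 8.92, 9.67 and 10.7 in HS1 to HS3. It had the narrowest spread of the 6 genes within the groups, and the groups did not overlap. The means were 5.72 ± 1.14 and 9.77 ± 0.899 (SD, n = 3 each), a ratio of 1.71 in favour of the heat-sensitive hens, and the log2 difference was -0.69 (SE 0.17). It lay between -0.81 and -0.57 when single libraries were left out. Its profile and that of NCF4 were the closest pair of the 6, differing by a root mean square of 0.29 log2 units over the 6 centred library values. The next pair, LYZ and CSF3R, was at 0.55, more than the spread of either profile (0.50 for LYZ and 0.38 for CSF3R). NCF4 and CSF3R were chosen with their lower HA level known, so their likeness is in part built in.

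The heterophil markers found by symbol were at low FPKM in both groups. Of 10 such markers other than CSF3R, 7 are in the table, and CATH2, AVBD1 and CEBPE are not. Of the 7, 6 had a mean FPKM below 1. These were the cathelicidins CATH1 and CATH3, the defensins AvBD2 and AvBD7, the calprotectin subunit gene S100A9, and MPO. Whether MPO marks avian heterophils was not checked, so nothing is read from its low level. The summed FPKM of the 7 was 2.82 to 4.40 in heat-adapted and 3.82 to 6.65 in HS libraries. With markers missing, the presence of heterophils cannot be judged from this list. The summed macrophage markers overlapped as well, with 3343 to 4214 and 3818 to 4472 over 10 genes, most of it from CD74. Of the 9 macrophage markers tested 6 were below 0 in log2 difference and none passed (limma). Of all genes tested, 10.9% were lower at an unadjusted p below 0.05 and 12.9% lay apart and lower. Among the macrophage markers, 2 had an unadjusted p below 0.05 and lay apart and lower in the HA libraries. These were the phagocytic receptor gene TIMD4 (-0.67, SE 0.19, adjusted p = 0.15) and the complement gene C1QC (-0.36, SE 0.14, adjusted p = 0.24). The summed B and plasma cell markers did not overlap, at 13298 to 20551 in heat-adapted and 28085 to 31538 in HS libraries, but nearly all of this sum came from the antibody genes IGLL1 and JCHAIN. Of the 8 genes 4 lay apart and lower (IGLL1, JCHAIN, POU2AF1 and BLNK), against 12.9% of all genes tested. The other 4 overlapped (CD79B, PAX5, TNFRSF13C and BTK). All 8 were below 0 in log2 difference (median -0.67, -0.13 without HS1 and -0.38 without HA1; limma, 0 passed and 3 had an unadjusted p below 0.05). T cell markers summed to 554 to 741 and 544 to 892. Of these 8 markers 7 were below 0 in log2 difference and 1 above (median -0.28, -0.13 without HS1 and -0.42 without HS2). None passed (limma). Only CD4 had an unadjusted p below 0.05 and lay apart and lower, a count near the background of 10.9% and 12.9%. The 8 smooth muscle markers were all below 0 (median -1.21), with sums of 165 to 448 and 414 to 941. Their median was -0.82 without HA1 and -1.52 without HA2. None passed (limma), 5 were lower at an unadjusted p below 0.05 and 4 lay apart and lower. The shares over all genes tested were 10.9% and 12.9%. The part of these cells in the EXFABP, NCF4 and CSF3R differences was not tested.

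Other antimicrobial proteins were then read from a list of 55 further symbols, of which 28 are in the table and 17 were tested. None passed over all genes (limma). At an unadjusted p below 0.05, 1 was higher and 4 were lower in the HA libraries, against 7.13% and 10.9% of all genes tested. The 4 were RNASE6, RSFR, LBP and PTGDS, the neighbour of EXFABP given above. Of the 17 tested, 3 lay apart and lower (RNASE6, RSFR and PTGDS) and 0 apart and higher, against 12.9% and 9% of all genes tested. The list median was -0.22, against -0.06 for all genes, and it was -0.13 without HA1, -0.12 without HS2 and -0.08 without HS3. It was -0.47 when genes under a mean FPKM of 5 were left out, -0.11 with TPM scaling and -0.07 with quantile normalization. The ribonuclease A family genes RNASE6 and RSFR came closest to the threshold. RNASE6 was at 22.5, 25.3 and 22.8 against 37.2, 49.4 and 54.4 (log2 difference -0.95, SE 0.16, adjusted p = 0.0701). RSFR was at 138, 149 and 143 against 253, 205 and 273 (-0.75, SE 0.15, adjusted p = 0.0840). In both, the HA values were tightly grouped and below every HS value. LGALS3, a galectin of epithelium and macrophages, was at 1188, 818 and 1195 against 717, 490 and 907 (0.62, SE 0.26, adjusted p = 0.26), and its groups overlapped. GNLY, which encodes the lytic peptide NK-lysin, was far more abundant than any of the 6 genes, at 1924 to 2730 and 1976 to 3261, and overlapped between groups. The avian beta-defensins and cathelicidins found by symbol were at low FPKM. AvBD10 reached 9.79 in HA3 and AvBD9 reached 6.50 in HA2, and both were listed at 0 in at least 1 other library of that group.

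Of the other subunits and activators of the NADPH oxidase 14 were tested, and 1 lay apart and lower in HA libraries (CYBA) and 1 apart and higher (PRKCD), against 12.9% and 9% of all genes tested, so this count is near the background. They come from 22 further symbols, of which 17 are in the table, and none passed over all genes (limma, lowest adjusted p = 0.23). At an unadjusted p below 0.05, 1 was higher and 0 were lower, against 7.13% and 10.9% of all genes tested. The list median was -0.29 (-0.17 without HS1 and -0.17 with TPM scaling). NCF1, a cytosolic partner of NCF4, was at 5.97, 10.6 and 9.44 against 17.0, 7.39 and 9.21. It overlapped between the groups, and HS1 was its highest library, as it was for NCF4. CYBB, the membrane subunit that carries the electrons, was at 4.99, 9.30 and 6.63 against 13.7, 7.75 and 9.14 (-0.49, SE 0.25, adjusted p = 0.33). Its partner CYBA was at 34.9, 24.7 and 28.8 against 35.0, 36.6 and 37.7 (-0.31, SE 0.15, adjusted p = 0.31), so its groups lay apart by less than 0.1 FPKM. RAC2, the leukocyte GTPase that activates the complex, had a log2 difference of -0.39 (SE 0.19, adjusted p = 0.32). PRKCD, a kinase that phosphorylates oxidase subunits, was the gene at an unadjusted p below 0.05, at 58.0 ± 1.56 against 44.1 ± 7.68 (SD, n = 3 each; 0.40, SE 0.15, adjusted p = 0.23). The differences of these genes from NCF4 were not tested.

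Granulocyte receptor signalling and phagocyte genes were a list of 49 further symbols, with 38 in the table and 34 tested. None passed over all genes (limma). At an unadjusted p below 0.05, 0 were higher and 8 lower, against 7.13% and 10.9% of all genes tested. With TPM scaling the order of this background was reversed, with 1342 genes higher and 701 lower. The list median was -0.20. This median was -0.12 without HA1, -0.30 without HA2, -0.13 without HS1, -0.12 with median-of-ratios scaling and -0.08 with TPM scaling. FCER1G, the signalling chain shared by Fc receptors, stood out in size: it was at 6.09, 17.8 and 18.0 in the heat-adapted and 42.2, 52.0 and 69.1 in the HS libraries (log2 difference -1.99, SE 0.40, adjusted p = 0.105). CEBPB, a transcription factor of granulocyte and acute phase genes, was at 5.83 ± 0.824 against 9.78 ± 2.54 (-0.64, SE 0.21, adjusted p = 0.18). IL8L2, a chemokine of the interleukin-8 family, was at 1.52, 1.46 and 1.93 against 3.01, 2.16 and 4.33 (-0.63, SE 0.22, adjusted p = 0.21). LAPTM5, a lysosomal membrane protein of leukocytes, was at 116 ± 15.1 against 179 ± 49.6 (-0.59, SE 0.20, adjusted p = 0.20). Groups of all 4 lay apart. Of the 34 tested, 6 lay apart and lower and 1 apart and higher, against 12.9% and 9% of all genes tested. The higher gene was ALOX5, at 18.5 ± 6.09 against 12.6 ± 1.96 (SD, n = 3 each; 0.49, SE 0.22, limma adjusted p = 0.28). Over the 3 lists and the ghrelin genes, 66 genes were tested; 10 lay apart and lower and 2 apart and higher in the HA libraries, of which the background shares are 12.9% and 9%. CSF1R, the macrophage counterpart of CSF3R among colony-stimulating factor receptors, overlapped between groups at 12.0, 19.1 and 12.6 against 20.6, 21.2 and 15.7.

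**Figure D3:**
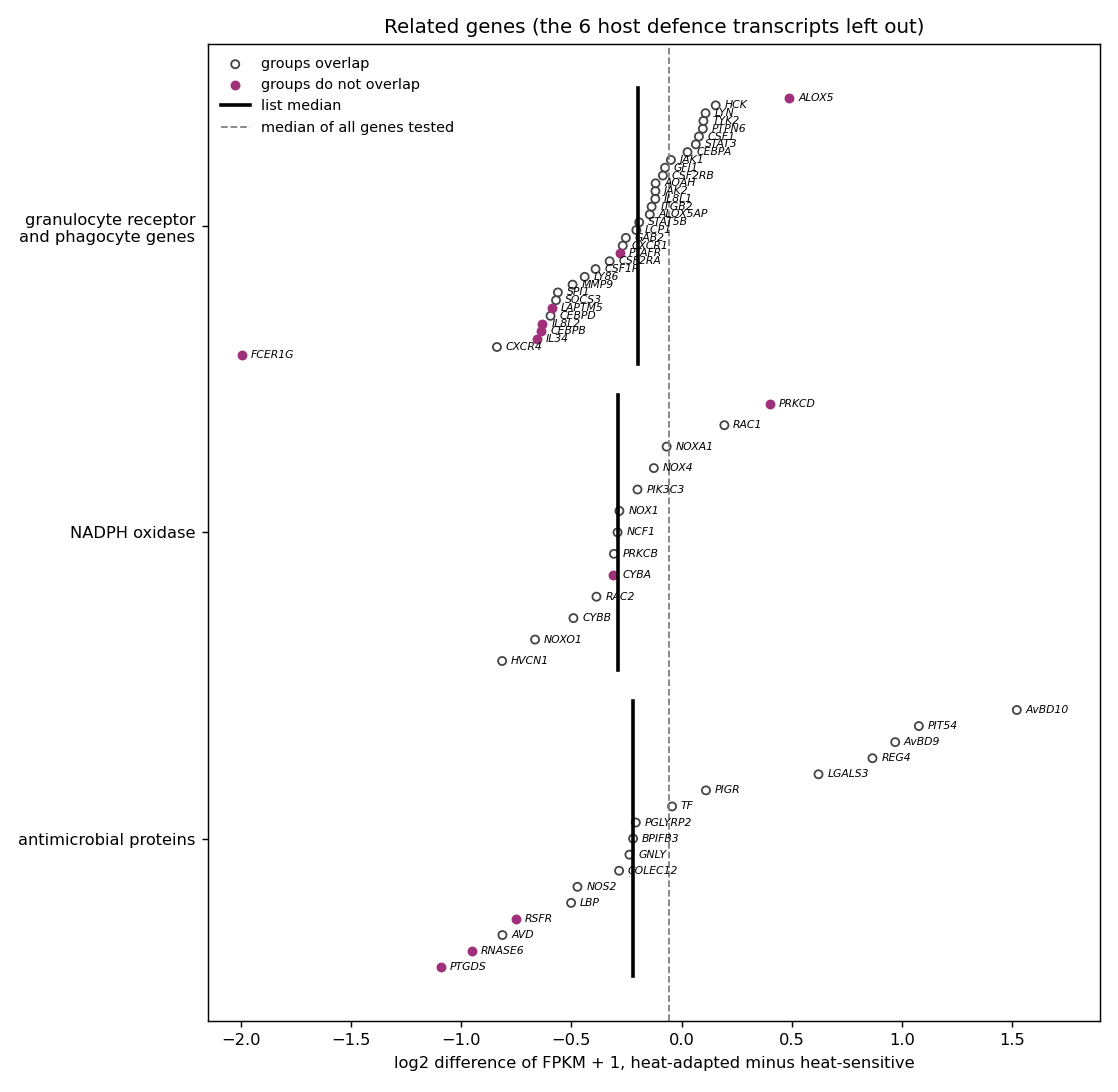
Log2 difference of FPKM + 1 (horizontal axis, heat-adapted minus heat-sensitive) of the tested genes in the 3 related lists, 1 NADPH oxidase gene not drawn, ordered within each list; filled points are genes whose groups do not overlap, black lines the list medians (-0.20, -0.29 and -0.22 from top to bottom) and the dashed line the median of all genes tested (-0.06). FCER1G, at -1.99, lies farthest to the left.

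The genes most like each of the 6 were taken as the 3 with the smallest root mean square difference of centred log2(FPKM + 1) values over the 6 libraries. EXFABP was nearest to LOC417973 (0.41), the recombinase gene RAG2 (0.44) and a gene listed as GBE (0.49). LOC417973 and GBE lie near each other on one chromosome of the GRCg7b order, with 1 gene between them, and LOC417973 was at 33.6, 62.6 and 96.1 against 379, 113 and 492. LOC417973 and GBE did not pass (limma, adjusted p = 0.18 for each), while RAG2 did (log2 difference -2.45, SE 0.20, adjusted p = 0.00259). RAG2 was at 0.04, 0.09 and 0.09 in HA1 to HA3 and at 6.32, 4.58 and 3.91 in HS1 to HS3. It thus reached a mean FPKM of 1 only through the HS libraries. These genes were picked for likeness to EXFABP, whose group difference was known, so nothing is read from their tests. LEAP2 was nearest to LOC107056277 (0.09), URAH, an enzyme of urate breakdown (0.09), and FCGBP, a mucus protein that binds the Fc part of antibodies (0.09). The distances for LEAP2 were small against the spread of its own profile, a root mean square of 0.50, whereas those for EXFABP were closer to its spread of 1.26.

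LYG2 was nearest to AVD, the gene of the biotin-binding protein avidin (0.48), to LOC101750892 (0.53) and to LOC112532301 (0.58), against its own spread of 1.18. AVD was at 106, 19.4 and 49.8 in the heat-adapted and 32.0, 86.2 and 208 in the HS libraries, so HA1 and HS3 were its highest libraries too. LYZ was nearest to ABCB1, an efflux pump (0.15), KBTBD11 (0.15) and CYGB, a globin (0.16). NCF4 was nearest to DSCC1, a factor of sister chromatid cohesion (0.06), the CD300 family gene CD300LG (0.09) and the cyclin gene CCNA2 (0.10). CSF3R was nearest to IFITM3, an interferon-induced membrane protein (0.09), the splicing factor gene SRSF3 (0.10) and PIGY (0.10). None of the genes nearest to LYG2, LYZ, NCF4, CSF3R or LEAP2 passed over all genes (limma, lowest adjusted p = 0.0979, of DSCC1). They too were picked by profile, so nothing is read from these tests. Likeness over 6 libraries is a description, and no test was made of it.

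**Figure D4:**
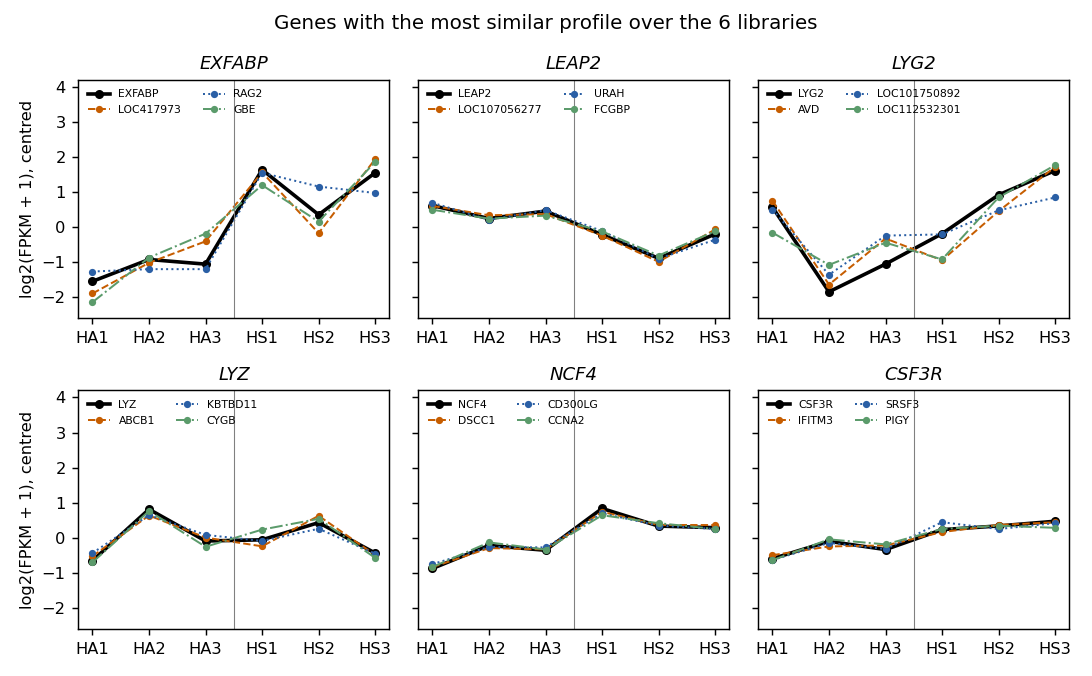
Centred log2(FPKM + 1) (vertical axis, 0 = the gene's mean over the 6 libraries) of each of the 6 genes (black) and the 3 genes of most similar profile (coloured) in HA and HS libraries; lines only join points of one gene and imply no order of libraries. The LEAP2, NCF4 and CSF3R groups of lines nearly coincide, while LYG2 and EXFABP stand farther from their nearest genes.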

How the data were processed

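RNA-seq of 6 pooled jejunal libraries was used. Build GRCg6a and the tools DESeq2, HTSeq 0.6.1, HISAT2 2.0.1 and cutadapt 1.9.1 are named, per the submitters' processing notes; no source used here gives the strand setting or annotation. FPKM values, scaled by the authors for length and library size, are per the file headers. The deposited read counts were treated as estimated counts, since 13.2% to 13.7% of a library's values are not whole, and gave library totals only: their rows are out of order with the symbols (Spearman's rho of -0.0048 between mean FPKM and mean read count). The design foresaw this, so FPKM was tested.

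Rows with a date for a symbol (19) or no symbol (1) were left out. A limma 3.58.1 fit (R 4.3.3) of log2(FPKM + 1) took in each gene whose mean FPKM was 1 or more (trended, robust empirical Bayes, no block), with Benjamini-Hochberg adjustment over all genes, 2-sided, at 0.05. The fit was tested on simulated data. Fold changes of low genes are understated on this scale. Lists were matched by symbol without regard to case. A count row was assigned if, over HS1 to HS3, it stayed within 0.01 (log2) of the common ratio and no other row within 0.04, for FPKM above 20 and counts above 100.

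The 6 genes and the lists were chosen with earlier results of these data known. Named genes are the 6, the 4 of smallest p of each related list and the 3 nearest profiles of each of the 6; others were named after their values were seen. The values of 1 NADPH oxidase gene are counted in its list but not reported here. RefSeq's GRCg7b table, another build, held all 6 symbols and gave gene order only. Alternatives were another pseudocount, other filters and scalings, a replicate block and leaving out each library.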

Additional observations from a re-analysis of the deposited data

How the results depend on the processing

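The log2 differences of EXFABP, LEAP2, LYG2, NCF4 and CSF3R kept their sign under every alternative that held the gene, while that of LYZ took both signs. Each of the 6 differences moved by less than its within-group SD. Much of this was fixed in advance. Leaving out 1 library cannot move a difference by as much as that SD, nor turn its sign where the groups do not overlap. The block and the filters leave each difference unchanged, except that the filter at a mean FPKM of 5 removes NCF4. Results not fixed in this way are those of the scalings and the pseudocount, and the signs of LYG2 and LYZ with a library left out. With TPM scaling EXFABP was at -2.27, and CSF3R at -0.59, and the median of all genes moved from -0.06 to 0.05. The number of genes past the threshold over the whole table, 11, was 17 with a pseudocount of 0.1, 38 with TPM, 20 with median-of-ratios scaling, 6 with no filter and 7 with a mean FPKM of at least 5. The medians of the related lists other than the ghrelin genes stayed below 0 under every alternative run. They ran from -0.47 to -0.07 for antimicrobial proteins, -0.30 to -0.17 for the NADPH oxidase and -0.30 to -0.08 for granulocyte and phagocyte genes. That of the ghrelin genes, GHRL alone, was above 0 (0.18) and fell below 0 only without HA3 (-0.13). The count over the whole table ran from 6 without HA2 to 64 without HA3. The causes were not tested. Replicate numbers are shared between the groups, and whether same-numbered libraries share more than a number is not stated. Deviations of same-numbered libraries from their group means had correlations of -0.16, 0.11 and -0.19, which cannot settle this. With a replicate block 46 genes passed, and 1 related gene did, FCER1G, where 0 did otherwise. The FPKM columns carry no counts, so no depth interval can be given for a gene; NCF4 is the least certain in level, at an FPKM of 1.64 to 7.64.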

Other observations

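A few further defence and inflammation genes, picked after their values were seen, had their highest HS value in replicate 3, the library with the most LYG2. Other genes of the lists were highest in HS1, such as NCF1, or in HS2, such as LBP. The share of all genes that were highest in HS3 was not counted, so nothing is read from this choice. NOXO1, an organiser subunit of the epithelial NADPH oxidase, was at 29.8 there against 2.51 in HS1, 3.53 in HS2 and 2.89 to 5.38 in HA libraries. Its catalytic partner NOX1 was at 130 there, against 44.9 and 74.1, and 51.0 to 71.1 in the HA libraries. SOCS3, an inhibitor of cytokine signalling, was at 90.5 there against 14.2 in HS1, and in the HA group it was highest in replicate 1 at 34.3, again the library with the most LYG2 of its group. REG4, a secreted lectin, showed the opposite order, with 97.5 in HS3 against 390 and 176, and 272 in HA1 against 428 and 352. None of these 4 genes passed the comparison of the groups (limma, lowest adjusted p = 0.38, of REG4). Each library pools 4 hens, so a single hen and a whole pool cannot be told apart.

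LYG2 was the only one of the 6 genes with a recognised read-count row. That row held 318, 777 and 1288 reads in HS1 to HS3, and 491, 1072 and 1177 in those labelled HA1 to HA3. HA1 was thus the lowest of the 3 in read counts, whereas in FPKM it was the highest, at 46.1 against 7.85 and 14.3. In FPKM the LYG2 mean was lower in HA (22.8 against 60.7 in HS), although the groups overlapped. The read counts of this row, which are not scaled for library totals, did not place the HA libraries lower. This check was chosen after the data were seen.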
